A study of Rattus norvegicus with 18 samples.

Results

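The genes described here are 10 enzymes that the liver uses to turn amino acid nitrogen into urea or to break down single amino acids. They were chosen by name: 6 enzymes of the urea cycle and its activator step (Cps1, Otc, Ass1, Asl, Arg1 and Nags) and 4 amino acid enzymes known from rodent liver to be strongest around the portal tract (Hal, Sds, Gls2 and Tat). The choice was made with earlier results of these data known, so counts of the 10 describe them and do not test them as a set. All 10 were measured, of 10914 genes tested on the array. The 18 samples were whole livers of F344 rats, all male and 5 weeks old at purchase, in 6 groups of 3. At each of day 28 and day 84 there was a group given carbon tetrachloride (CCl4, 100 mg/kg in corn oil), a group given diethylnitrosamine (DEN, 4 mg/kg in saline) and a control group. Both compounds were given daily by gavage in 5 mL/kg. The controls are called vehicle in the sample titles and untreated in the treatment description, so whether they received an oil or saline gavage is not settled, and the compounds differ in vehicle as well as in dose. DEN is a genotoxic liver carcinogen, and CCl4 is a solvent that injures hepatocytes without being classed as genotoxic.

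The urea cycle removes ammonia. Nags makes N-acetylglutamate, the obligate activator of Cps1, and Cps1 joins ammonia to bicarbonate in the mitochondrion. Otc, Ass1, Asl and Arg1 then carry the nitrogen through citrulline, argininosuccinate and arginine to urea and ornithine. In rodent liver these enzymes are high in periportal hepatocytes and low in the last rows of cells around the central vein, where glutamine synthetase (Glul) takes up the remaining ammonia. Tat and Sds are textbook targets of glucocorticoids and glucagon in rat liver.

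Each level below is a log2 value relative to the 75th percentile of signal on its own array, so 0 is that percentile and a step of 1 is a doubling. Levels of different genes come from different probes and are not compared with each other. All 10 genes were well above background on all 18 arrays, and no probe was saturated on any array. Over all probes, 47.2 to 57.0% were well above background per array. The number of arrays, 3 per group, limits the precision. The nature of the replicates is given only as separate samples of a group. Each is taken here as 1 rat, which the labels do not state, so a p-value measures the spread between these arrays. One array stood apart: replicate 2 of the CCl4 group at day 28 had correlations down to 0.976 with the other arrays of its group. It was also the lowest of its group for 10 of the 10 enzymes. Replicate 2 of the controls at day 28 and replicate 2 of DEN at day 84 were each lowest for 9 of the 10. Values of CCl4 at day 28 without its replicate 2 stand beside the results. In whole liver, fewer cells of a type and less RNA per cell cannot be told apart.

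Promoter windows were found in the RefSeq table (build GRCr8) for 7 of the 10 genes. Those of Ass1 and Tat are shown because these 2 genes were lower than in controls after both compounds on both days. That of Cps1 is shown because it encodes the enzyme of the first step. Each is the 250 bases before the start site, on the sense strand, with matches to any of 6 short motifs in capitals. The windows are chr3:35149480-35149729 (+ strand) for Ass1, chr19:54856354-54856603 (+ strand) for Tat and chr9:76063613-76063862 (+ strand) for Cps1.
Ass1: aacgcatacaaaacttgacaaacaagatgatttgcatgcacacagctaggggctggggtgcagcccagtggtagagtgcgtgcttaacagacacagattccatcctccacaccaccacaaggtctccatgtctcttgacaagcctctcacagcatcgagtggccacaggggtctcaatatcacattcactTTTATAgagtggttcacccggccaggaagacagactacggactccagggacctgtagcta
Tat: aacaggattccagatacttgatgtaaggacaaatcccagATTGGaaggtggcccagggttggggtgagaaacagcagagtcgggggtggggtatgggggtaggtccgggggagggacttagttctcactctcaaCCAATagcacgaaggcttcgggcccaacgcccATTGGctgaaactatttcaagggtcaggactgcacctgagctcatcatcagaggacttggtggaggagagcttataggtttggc
Cps1: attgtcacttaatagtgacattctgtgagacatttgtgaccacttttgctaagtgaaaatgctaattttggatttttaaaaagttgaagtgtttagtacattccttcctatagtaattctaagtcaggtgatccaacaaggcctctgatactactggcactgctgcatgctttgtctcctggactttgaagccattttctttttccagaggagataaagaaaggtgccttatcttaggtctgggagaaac
The motifs were searched on both strands. They were TATAAA for the TATA box, CCAAT for the box of that name, TTGCNNAA as a C/EBP-type site, AGAACA as the core of glucocorticoid receptor sites, TGACG as the core of cAMP response elements and GTTAAT as an HNF1 core. The Tat window held 3 CCAAT matches, which begin at positions -211, -116 and -84 from the start site. The Ass1 window held 1 TATAAA match on the opposite strand, at positions -60 to -55. No motif matched in the Cps1 window, which says only that these letters are not in it. Among 27457 promoters of the same length, 34.3% held a CCAAT match, 13.1% a TATAAA match and 17.1% an AGAACA match. The shares were 19.0% for TGACG, 9.2% for TTGCNNAA and 6.46% for GTTAAT.

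The first comparison asked how CCl4 changed these enzymes by day 28. The urea cycle and the amino acid enzymes were lower together: 10 of 10 passed the test as lower than in controls, where 33.6% of all genes did. A gene is said to have fallen or risen where limma's adjusted p (Benjamini-Hochberg over all genes tested in that comparison) was under 0.05. The median log2 difference of the 10 was -1.76, against -0.06 over all genes. The 4 amino acid enzymes had a median of -2.26 and the 6 urea cycle genes one of -1.14. For all 10 genes the 3 CCl4 arrays lay below the 3 control arrays, as they did for 34.6% of all genes.

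Cps1 had levels of 4.12, 3.46 and 3.80 in CCl4 livers at day 28, against 4.98, 4.62 and 4.97 in control livers. It fell 2.09-fold (log2 difference -1.06 ± 0.17 SE, adjusted p = 0.000128 by limma). Otc, the mitochondrial enzyme that makes citrulline, fell more. Its levels were 4.76, 3.86 and 4.80 in CCl4 livers and 6.38, 6.22 and 6.34 in control livers, a 3.58-fold fall (-1.84 ± 0.18, adjusted p = 2.62e-06). Ass1, which joins citrulline to aspartate, was at 6.90, 5.95 and 6.65 in CCl4 livers and at 8.49, 8.08 and 8.47 in control livers. It fell 3.59-fold (-1.85 ± 0.21, adjusted p = 6.85e-06). Arg1, the arginase that releases urea, fell 2.32-fold, with levels of 7.79, 6.90 and 7.70 in CCl4 livers against 8.68, 8.71 and 8.64 in control livers. The smallest falls were those of Nags and Asl. Nags was 1.68-fold lower (-0.75 ± 0.17, adjusted p = 0.00184). Asl, which splits argininosuccinate, was 1.50-fold lower (-0.59 ± 0.17, adjusted p = 0.0101), with its CCl4 arrays at 6.66, 6.29 and 6.47 and its control arrays at 7.42, 6.69 and 7.06.

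Of the amino acid enzymes, Tat, Sds and Hal had log2 differences below those of every urea cycle gene, and Gls2 had one above those of Otc and Ass1; these differences between genes were not tested. Tat, the first enzyme of tyrosine breakdown, was at 1.83, 1.18 and 2.26 in CCl4 livers and at 4.54, 4.04 and 4.51 in control livers. This was a 6.10-fold fall (-2.61 ± 0.36, adjusted p = 3.53e-05), and 0.706% of all genes had a lower value. Sds, which deaminates serine, had the widest scatter of the 10. Its levels were 4.00, 1.41 and 4.69 in CCl4 livers, against 6.16, 4.99 and 6.53 in control livers, a 5.76-fold fall whose 95% confidence interval ran from -4.05 to -1.01 on the log2 scale. Hal, the first enzyme of histidine breakdown, had levels of 4.94, 4.08 and 5.28 in CCl4 livers and 6.92, 6.50 and 6.85 in control livers. It fell 3.97-fold (-1.99 ± 0.26, adjusted p = 2.28e-05). Gls2, the liver-type glutaminase that feeds ammonia to Cps1, was at 5.89, 4.46 and 5.94 in CCl4 livers and at 7.14, 6.87 and 7.32 in control livers, a 3.21-fold fall. Without replicate 2 of the CCl4 group all 10 genes still fell, with log2 differences between -0.49 for Asl and -2.32 for Tat. Sds moved most, to -1.55. The slide that held both groups carried only replicates 1 and 2 of the CCl4 group, so replicate 2 is part of that check. There all 10 fell as well, with Sds at -3.19 and Gls2 at -1.94.

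**Figure D1:**
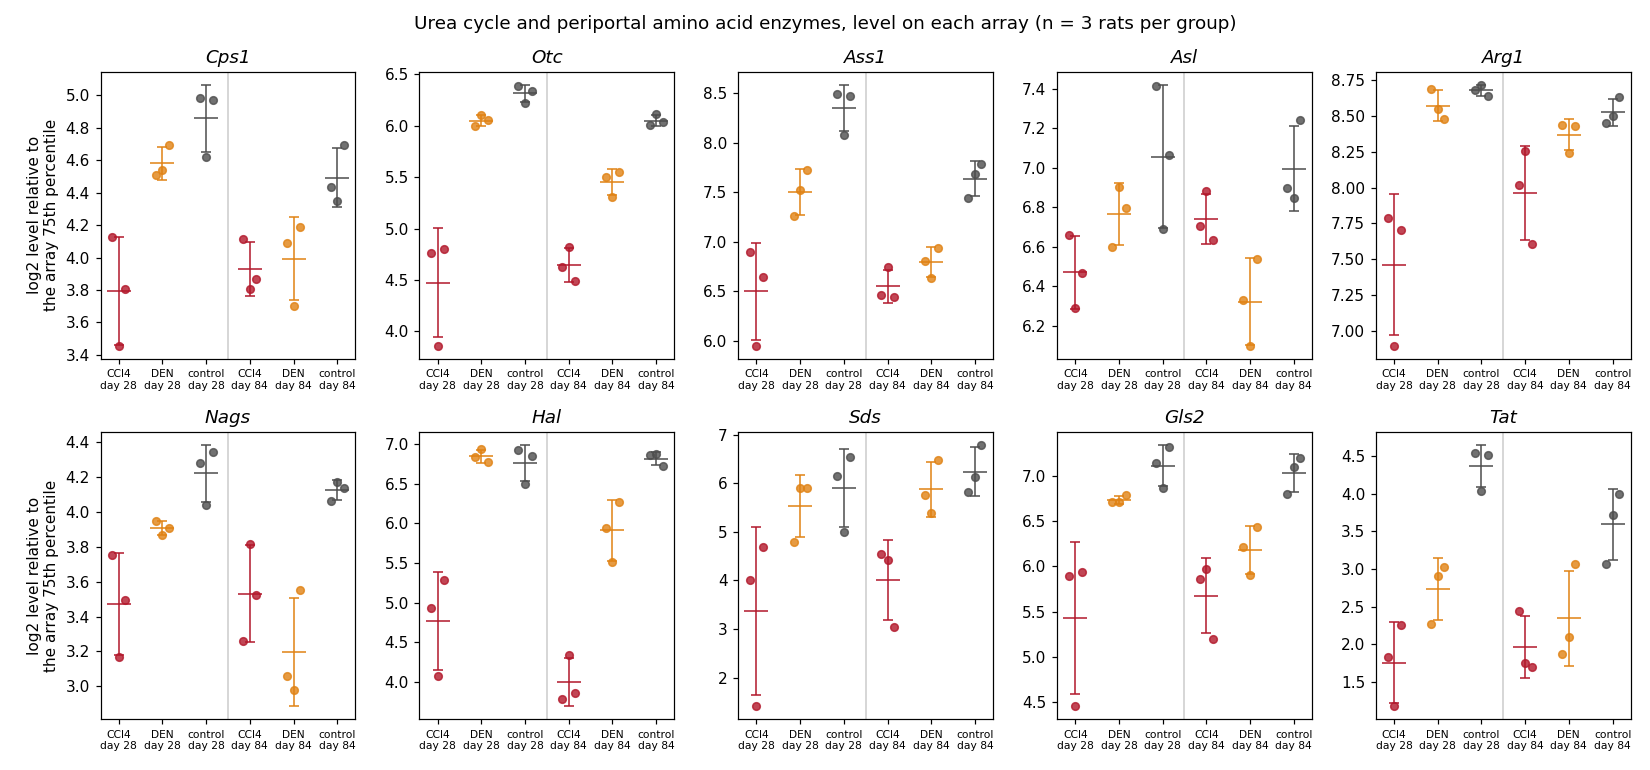
Level of each of the 10 enzymes on each array, in log2 units relative to the array's 75th percentile. Points are arrays, each taken as 1 rat, horizontal marks are group means and bars are 1 SD (n = 3 per group). The CCl4 arrays at day 28 lie below the control arrays in all 10 panels, and the same array is at the bottom of that group in each.

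By day 28, DEN at its dose had lowered only 2 of the 10 genes, Tat and Ass1, by this test. That is 2 of 10, where 7.19% of all genes were called lower, and no member was called higher. Tat was at 2.27, 2.91 and 3.02 in DEN livers and at 4.54, 4.04 and 4.51 in control livers, with no overlap. It was 3.10-fold lower (-1.63 ± 0.36, adjusted p = 0.0089), and 0.229% of all genes had a lower value. Ass1 was at 7.26, 7.52 and 7.73 in DEN livers and at 8.49, 8.08 and 8.47 in control livers, 1.80-fold lower (-0.84 ± 0.21, adjusted p = 0.0163). Both calls rest on few arrays: without DEN replicate 1 neither passed, and without control replicate 1 only 1 of the 2 did. The other 8 lay between -0.38 for Gls2 and 0.09 for Hal. Hal overlapped with controls, at 6.83, 6.94 and 6.77 in DEN livers against 6.92, 6.50 and 6.85 in control livers, and its 95% confidence interval of -0.47 to 0.64 bounds any change. The median of the 10 was -0.30, against -0.04 over all genes.

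By day 84 the DEN livers had 8 of the 10 genes lower than controls, where 31.1% of all genes were. Nags fell 1.90-fold, and its arrays did not overlap: 3.06, 2.98 and 3.55 in DEN livers and 4.06, 4.17 and 4.14 in control livers (-0.93 ± 0.17, adjusted p = 0.000566). Ass1 fell 1.79-fold and Asl 1.59-fold. Otc, at 5.50, 5.31 and 5.54 in DEN livers against 6.01, 6.11 and 6.03 in control livers, fell 1.51-fold, and Cps1 fell 1.41-fold (adjusted p = 0.0254). Arg1 was the urea cycle gene that did not pass: its levels were 8.44, 8.24 and 8.43 in DEN livers and 8.45, 8.50 and 8.63 in control livers, a log2 difference of -0.16 (95% confidence interval -0.58 to 0.26).

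Among the amino acid enzymes at day 84, Tat was at 1.87, 2.10 and 3.07 in DEN livers and at 3.07, 3.72 and 3.99 in control livers, a 2.37-fold fall (-1.25 ± 0.36, adjusted p = 0.0101). The highest DEN array and the lowest control array were nearly level. Hal fell 1.87-fold, with levels of 5.95, 5.51 and 6.27 in DEN livers against 6.86, 6.87 and 6.72 in control livers (-0.90 ± 0.26, adjusted p = 0.00982). Gls2 fell 1.80-fold (adjusted p = 0.0369). Sds overlapped between the groups, at 5.75, 5.39 and 6.48 in DEN livers and 5.81, 6.13 and 6.78 in control livers, and its difference of -0.37 had an interval of -1.89 to 1.15. Replicate 2 of this DEN group was the lowest for 9 of the 10 genes. Without it 4 of the 10 passed.

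CCl4 at day 84 gave falls in 9 of the 10 genes, where 36.3% of all genes were lower. Hal, not Tat, had the largest fall here, 7.06-fold (-2.82 ± 0.26, adjusted p = 1.01e-06). Its levels were 3.79, 4.34 and 3.86 in CCl4 livers and 6.86, 6.87 and 6.72 in control livers, far apart, and 0.522% of all genes had a lower value. Sds fell 4.71-fold, at 4.54, 4.43 and 3.05 in CCl4 livers against 5.81, 6.13 and 6.78 in control livers (adjusted p = 0.0131). Tat fell 3.09-fold, at 2.44, 1.76 and 1.70 in CCl4 livers against 3.07, 3.72 and 3.99 in control livers (adjusted p = 0.00124). Gls2 fell 2.56-fold.

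In the urea cycle at day 84, Otc led with a 2.64-fold fall: its levels were 4.63, 4.82 and 4.49 in CCl4 livers and 6.01, 6.11 and 6.03 in control livers (-1.40 ± 0.18, adjusted p = 1.92e-05). Ass1 fell 2.12-fold. Nags, Arg1 and Cps1 fell by smaller amounts, 1.51-fold, 1.48-fold and 1.48-fold. Asl did not pass, with overlapping levels of 6.71, 6.88 and 6.63 in CCl4 livers and 6.90, 6.85 and 7.24 in control livers (-0.25, 95% confidence interval -0.63 to 0.12). Replicates 2 and 3 of this CCl4 group were on another slide, with another scan stamp, than the controls. On the slide that held controls and replicate 1, 5 of the 10 genes passed (Otc, Ass1, Nags, Hal and Gls2), with a log2 difference of -3.03 for Hal and -1.42 for Otc. There Cps1 stood at -0.37, Arg1 at -0.51, Sds at -1.70 and Tat at -1.15, none of which passed.

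**Figure D2:**
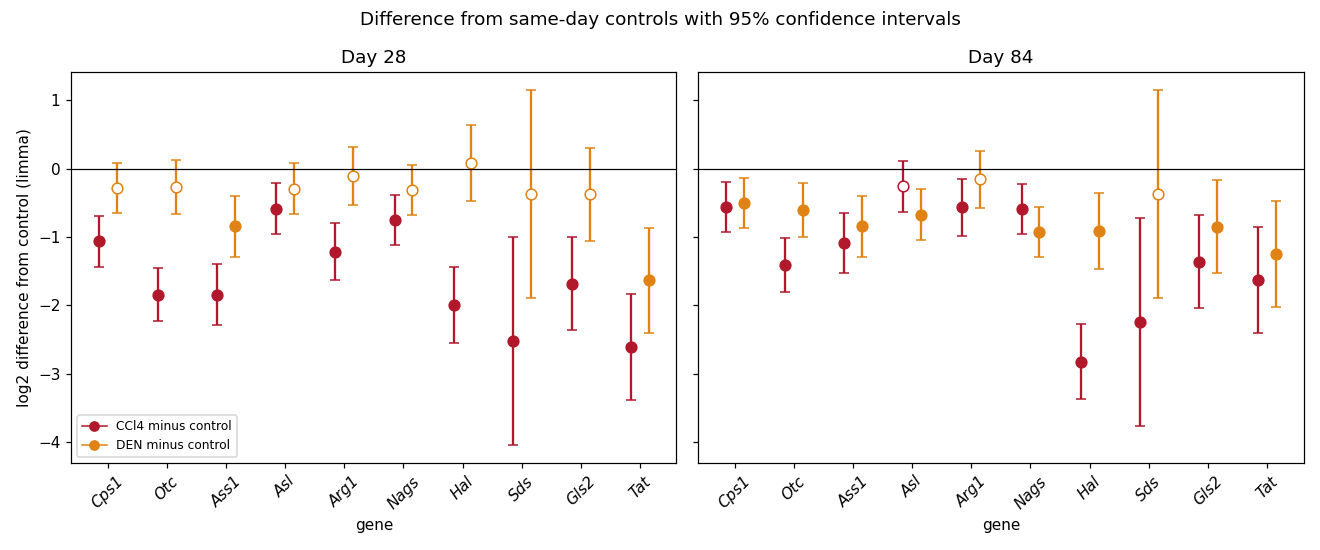
Log2 difference from same-day controls for each enzyme, after CCl4 (left point of each pair) and DEN (right point), at day 28 and day 84; filled points passed an adjusted p of 0.05 and bars are 95% confidence intervals. At day 28 all 10 CCl4 points and 2 DEN points are filled, and at day 84 9 CCl4 points and 8 DEN points are.

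The 2 compounds were then set against each other on the same day. Their doses and vehicles differ, so the values compare these treatments and not the compounds dose for dose. At day 28, 8 of the 10 genes were lower after CCl4 than after DEN, where 24.7% of all genes were. The differences were -2.08 ± 0.26 for Hal (adjusted p = 3.87e-05), -1.58 ± 0.18 for Otc (adjusted p = 2.27e-05) and -1.11 ± 0.20 for Arg1 (adjusted p = 0.000499). Nags and Asl did not pass, at -0.43 and -0.30. Without CCl4 replicate 2, 6 of the 10 passed, and Sds and Tat no longer did.

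At day 84, 2 of the 10 genes were lower after CCl4 than after DEN, Hal and Otc, where 15.8% of all genes were lower. Hal differed by -1.92 ± 0.26 (adjusted p = 0.000106) and Otc by -0.80 ± 0.18 (adjusted p = 0.0043). Cps1 was within error of equal, at 4.12, 3.81 and 3.86 in CCl4 livers and 4.09, 3.70 and 4.19 in DEN livers, with an interval of -0.43 to 0.30. Asl was placed the other way: 6.71, 6.88 and 6.63 in CCl4 livers lay above 6.33, 6.10 and 6.54 in DEN livers, but the difference of 0.42 did not pass (adjusted p = 0.0796).

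Whether the effect of a compound changed between day 28 and day 84 was tested as a difference of differences. For DEN 0 of the 10 genes passed in limma (16.1% of all genes did), with 2 at an unadjusted p under 0.05, Hal and Nags. The effect on Hal was -0.99 ± 0.37 (adjusted p = 0.0795). For CCl4 0 of the 10 passed as well (6.03% of all genes did), with Ass1, Arg1 and Hal at an unadjusted p under 0.05. The CCl4 effect on Ass1 was 0.76 ± 0.29 nearer to 0 at day 84, and that on Hal was -0.83 ± 0.37 further from it. Without CCl4 replicate 2 of day 28, Hal passed at -1.17 (adjusted p = 0.0178). In control livers at day 84 against day 28, Ass1 was lower by -0.71 ± 0.21 (adjusted p = 0.0457), 1 of 10 where 5.32% of all genes were lower. That call was lost in 5 of 6 fits that left out 1 array and under 7 of 12 other settings, with adjusted p from 0.029 to 0.277 over them all. No slide held both control groups, so age, slide and scan cannot be told apart there.

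Over all 6 groups, Hal averaged 6.85 in DEN livers at day 28, the highest, and 4.00 in CCl4 livers at day 84, the lowest. The other 9 genes were highest in a control group: Sds in that of day 84 and the rest in that of day 28. The lowest group was CCl4 at day 28 for 7 of those 9, and DEN at day 84 for Asl and Nags. Neighbouring groups overlapped often in this order. For Cps1 the order down was control at day 28, DEN at day 28, control at day 84, DEN at day 84, CCl4 at day 84 and CCl4 at day 28, and the only neighbours with no overlap were control at day 84 and DEN at day 84. For Otc the CCl4 groups of both days overlapped each other and lay apart from every DEN and control array.

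How far these falls depend on the scaling was measured with 3 other references. With quantile normalization, 9 of 10 genes fell with CCl4 at day 28 and 6 at day 84, and with DEN 2 and 6 fell. The array's 75th percentile stood higher against 8 spike-in probe sequences, RNAs added in equal amounts, by 0.80 log2 in CCl4 than in control livers at day 28, by 0.41 in DEN livers at day 28, by 0.55 in CCl4 livers at day 84 and by 0.71 in DEN livers at day 84. Scaled to the spike-ins, 6 of 10 genes fell with CCl4 at day 28 (Otc, Ass1, Hal, Sds, Gls2 and Tat) and the same 6 fell with CCl4 at day 84. Cps1 was then at -0.26 and -0.01 on those days. With replicate 2 of the CCl4 group left out, 4 of 10 fell at day 28 on this scale (Otc, Ass1, Hal and Tat), while Sds was at -0.84 (adjusted p = 0.185) and Gls2 at -0.49 (adjusted p = 0.0907). After DEN on this scale, Tat alone was lower at day 28 (-1.22), and at day 84 none fell and Arg1 was higher (0.55, adjusted p = 0.016).

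By median difference from controls, hepatocyte markers were lowest with CCl4 at day 28 and nearest to 0 with DEN at day 28, as the enzymes were. At day 84 the order differed: the markers were lower with DEN than with CCl4, while the enzyme medians were -0.76 with DEN and -1.22 with CCl4. The 9 markers (Alb, Ttr, Apoa1 and 6 other secreted plasma proteins) were lower in CCl4 livers at day 28 in 9 of 9 cases with a median of -0.75, and in 7 of 9 at day 84 with a median of -0.45. After DEN 2 of 9 were lower at day 28 (median -0.29) and 8 of 9 at day 84 (median -0.66). Their summed level ran from 4249 to 5411 in CCl4 livers, 7041 to 7135 in DEN livers and 8449 to 8749 in control livers at day 28. At day 84 it ran from 4609 to 6181 in CCl4 livers, 4212 to 4934 in DEN livers and 7071 to 7368 in control livers, in units of the 75th percentile. Relative to the mean of these markers, a scaling chosen after seeing the data, Otc, Ass1, Hal, Sds, Gls2 and Tat fell with CCl4 on both days. Arg1 also fell at day 28 (-0.47, adjusted p = 0.0114), while Cps1 stood at -0.32 and -0.12 on the 2 days without passing. Without replicate 2 of the CCl4 group at day 28, whose other arrays had a marker sum of 5309 and 5411, all 9 markers still fell and 5 of the 10 enzymes did relative to them. Sds (-0.91, adjusted p = 0.141) and Arg1 (-0.30, adjusted p = 0.069) then did not pass. After DEN at day 84 on this scale, Nags was the 1 gene that was lower (-0.31, adjusted p = 0.0351), and Arg1 was higher (0.46, adjusted p = 0.0159).

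**Figure D3:**
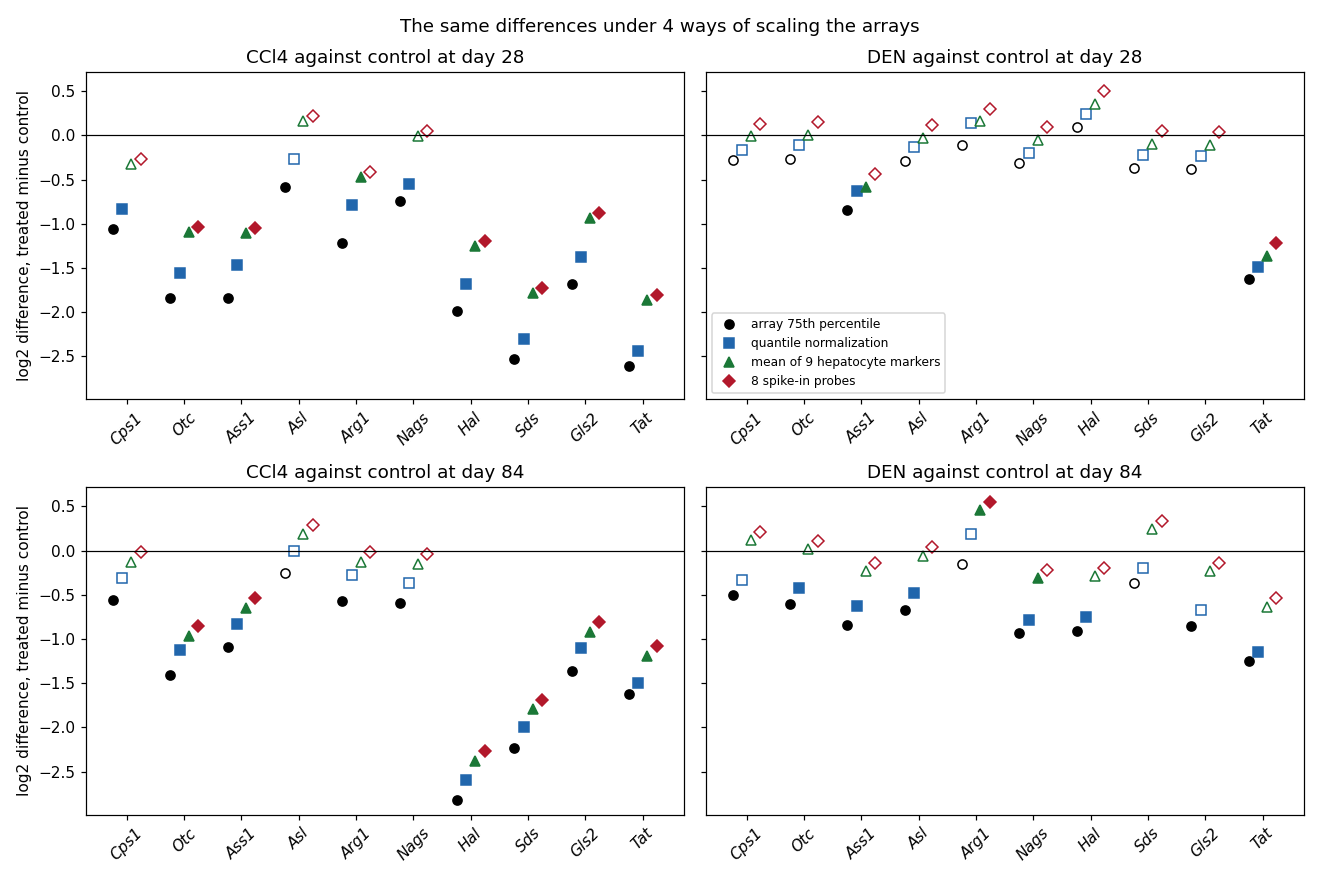
Log2 difference from same-day controls for each enzyme under 4 scalings of the arrays (75th percentile, quantile normalization, mean of 9 hepatocyte markers, 8 spike-in probes); filled symbols passed an adjusted p of 0.05. Otc, Ass1, Hal, Sds, Gls2 and Tat are filled under all 4 after CCl4 on both days, while under the marker and spike-in scalings Cps1 and Nags lie between -0.32 and 0.05 and Asl between 0.16 and 0.29 after CCl4, all unfilled.

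Other cell types were followed by marker lists, whose part in the results was not tested. Of all genes, 26.1% were called higher with CCl4 at day 28 and 28% at day 84, and 7.82% and 21.6% with DEN at days 28 and 84. Stellate cell markers rose in 7 of 9 cases with CCl4 at day 28 (median summed level 176 in CCl4 and 46.5 in control livers) and in 8 of 9 at day 84 (197 to 281 in CCl4 and 27.5 to 31.5 in control livers). With DEN they rose in 2 of 9 at day 28 and 5 of 9 at day 84, where 1 of 9 fell. Cholangiocyte markers rose in 4 of 6 and 6 of 6 with CCl4, and in 0 of 6 and 5 of 6 with DEN. Their summed level ran from 9.18 to 11.7 in CCl4 livers and 2.05 to 2.42 in control livers at day 84. Macrophage markers moved both ways with CCl4 at day 28, 3 of 9 up and 4 of 9 down. Lymphocyte markers rose in 4 of 8 with CCl4 on each day and with DEN at day 28, and 1 of 8 fell with CCl4 at day 84 and with DEN at day 84. Of the sinusoidal endothelial markers, 2 of 5 fell with CCl4 at day 28, where 33.6% of all genes fell, and 3 of 5 fell after each compound at day 84, where 36.3% did with CCl4 and 31.1% with DEN. With DEN 1 of 5 rose on each day. The median of this list, -0.28 to -0.29 in those 3 comparisons, lies above 0 on the spike-in scale. Of genes of dividing cells, all 5 tested rose with CCl4 on both days and with DEN at day 84, with Mki67 at 3.32, 3.07 and 2.06, and 2 of 5 rose with DEN at day 28. Of 3 pancreatic acinar markers tested, Cpa1, named after its value was seen, was at least 23.1-fold higher in DEN than in control livers at day 84. It was well above background on the 3 DEN arrays of that day and on no array of the other groups, so the bound is taken against the lowest signal well above background on each control array. Its place among the tested genes rests on those 3 arrays, so no p-value is given. The other 4 of the list were too dim to test. Without replicate 2 of the CCl4 group at day 28, stellate markers still rose in 7 of 9 cases (summed level 159 and 176 on the other arrays), cholangiocyte markers in 3 of 6 and lymphocyte markers in 3 of 8, where 21.8% of all genes were higher.

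The genes that supply the cycle were lower too. Of 11 measured, among them the aspartate and alanine transaminases and the ornithine carrier Slc25a15, 11 were lower with CCl4 at day 28 (median -1.31) and 10 at day 84 (median -0.72). With DEN 1 was lower at day 28 and 7 at day 84. The shares of all genes called lower were 33.6% and 36.3% with CCl4 and 7.19% and 31.1% with DEN at days 28 and 84, and the list counts that follow are read against them. Car5a, the mitochondrial carbonic anhydrase that provides bicarbonate to Cps1, fell by 1.66 with CCl4 at day 28. Slc7a2, an arginine and ornithine transporter, fell by 1.43 with CCl4 at day 28, by 1.18 at day 84, and by 0.91 with DEN at day 84. Glud1, glutamate dehydrogenase, fell by 0.69 with CCl4 and by 0.51 with DEN at day 84, of which the DEN value lies above 0 (0.20) on the spike-in scale.

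Ornithine and glutamine genes did not move as one. Of 7 glutamine genes, 3 rose and 3 fell with CCl4 at day 28, 3 rose and 3 fell with DEN at day 84, and 3 rose and 2 fell with CCl4 at day 84. Oat, which carries ornithine out of the cycle and in rat liver sits around the central vein, fell in all 4 comparisons: by 3.37 and 2.46 with CCl4 at days 28 and 84, and by 1.96 and 3.22 with DEN. Odc1, the first enzyme of polyamine synthesis, rose by 0.80 and 0.76 with CCl4 and by 0.93 with DEN at day 84. Aldh18a1, of proline and ornithine synthesis, rose by 2.25 and 1.39 with CCl4 and by 0.99 with DEN at day 84.

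As a ratio within each array, which no scaling factor changes, Cps1 over Glul, the periportal and the pericentral ammonia enzyme, was 1.82-fold lower in CCl4 than in control livers at day 28 and 1.35-fold lower at day 84, with no overlap between arrays (exact two-sided permutation p = 0.1 each, the smallest that 3 against 3 allows, and 0.133 after Benjamini-Hochberg over 4 ratios). On leaving out replicate 2 of the CCl4 group at day 28 it was 1.64-fold lower, still without overlap (exact permutation p = 0.2, 2 against 3 arrays). With DEN at day 28 the log2 difference of the ratio was -0.03 (exact permutation p = 1). After DEN at day 84 the ratio was higher by 0.33 log2, where Glul had fallen by 0.83 and Cps1 by 0.50 (exact permutation p = 0.1). The ratio describes these 2 genes only, as the 10 pericentral genes tested did not move as one. With CCl4, 5 fell and 2 rose at day 28 (median -0.47), and 2 fell and 2 rose at day 84 (median -0.09). With DEN, 1 fell and 2 rose at day 28, and 7 fell and 1 rose at day 84 (median -0.86). At day 28 after CCl4, Oat (-3.37) and Cyp1a2 (-1.49) lay below Cps1 (-1.06), and Rhbg (1.65) and Axin2 (1.19) rose. Slc1a5, a glutamine importer, rose by 2.22 and 2.29 with CCl4 and by 1.29 with DEN at day 84. Rhbg, an ammonium transporter of pericentral cells in rodents, rose in all 4 comparisons, by 1.65 and 3.94 with CCl4 and by 1.88 and 3.81 with DEN at days 28 and 84. Its mean level was 2.96 and 3.27 in CCl4 livers and 3.19 and 3.14 in DEN livers on the 2 days, against 1.32 and -0.68 in control livers. The control level was itself lower at day 84 than at day 28, by -1.99 (adjusted p = 3.81e-05), where age, slide and scan cannot be told apart.

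Past Hal, which also fell with DEN at day 84 (-0.90, adjusted p = 0.00982 by limma), histidine breakdown separated the compounds. Amdhd1 and Ftcd act after Hal in the same route. With CCl4 Amdhd1 fell by 1.17 and 1.99, and Ftcd by 1.74 and 1.67, at days 28 and 84. With DEN neither passed on either day: Amdhd1 was at 0.43 and 0.33, and Ftcd at -0.44 and -0.50. The difference between CCl4 and DEN at day 84 was itself past the threshold, at -2.32 for Amdhd1 and -1.16 for Ftcd. Amdhd1 was dim, with mean levels of -2.62 and -3.07 in CCl4 livers and -1.45 and -1.09 in control livers at days 28 and 84. Aldh1l1, which uses the folate product, fell by 1.76 with CCl4 at day 28 and rose by 1.04 with DEN at day 84. With CCl4 at day 84 it did not pass, at a mean of 5.15 against 5.68 in control livers.

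Tyrosine breakdown beyond Tat fell as a whole in 3 of the 4 comparisons. Of 7 genes, 7 were lower with CCl4 on each day (medians -1.12 and -0.84) and 7 with DEN at day 84 (median -0.76), against 1 with DEN at day 28. Hpd, the next enzyme after Tat, fell by 1.48 and 0.86 with CCl4 and by 1.08 with DEN at day 84. Of 6 tryptophan genes, 6 fell with CCl4 on each day and 4 with DEN at day 84. Tdo2, their first enzyme, fell by 2.24 and 1.03 with CCl4. Methionine and cysteine genes fell in 5 of 6 cases with CCl4 on each day and with DEN at day 84, and in 0 of 6 with DEN at day 28. Genes for proline, lysine and branched-chain amino acids fell in 11 of 11 and 9 of 11 cases with CCl4, and in 1 and 7 of 11 with DEN at days 28 and 84. Of 10 serine, glycine and threonine genes, 8 and 6 fell with CCl4, where Gnmt, the glycine methyltransferase, was at -2.83 and -2.05. At day 84 Tdh, threonine dehydrogenase, named after its value was seen, was at least 4.65-fold higher in CCl4 than in control livers. No control array was well above background for it, so the fold is a bound and no p-value is given. With DEN 2 and 4 of those 10 fell, the second of which is near the 31.1% of all genes. These lists were assembled with earlier results of the same data known, so their counts describe and do not test the pathways. All list values are on the 75th percentile scale. The shift to the spike-in scale is larger than the fall of the median with DEN at day 84 for the supply (-0.51), glutamine (-0.59), tryptophan (-0.63), serine (-0.28) and proline, lysine and branched-chain (-0.42) lists, which then lie above 0. It brings the tyrosine list (-0.76) to -0.05 and the methionine and cysteine list (-0.77) to -0.07. With DEN at day 28, where the shift is 0.41, the tyrosine (-0.32), proline (-0.29) and serine (-0.20) lists lie above 0 on that scale, and the supply, tryptophan, histidine and methionine lists between -0.04 and -0.02. With CCl4 at day 28 the serine list (-0.75) and the glutamine list (-0.20) lie above 0 there. When replicate 2 of the CCl4 group at day 28 was left out, the supply list had 10 of 11 lower, and the tyrosine, tryptophan, methionine, proline and serine lists had the counts given, with medians from -1.17 to -0.55. The medians of the hepatocyte markers lie above 0 on the spike-in scale after CCl4 on both days and after DEN on both days.

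**Figure D4:**
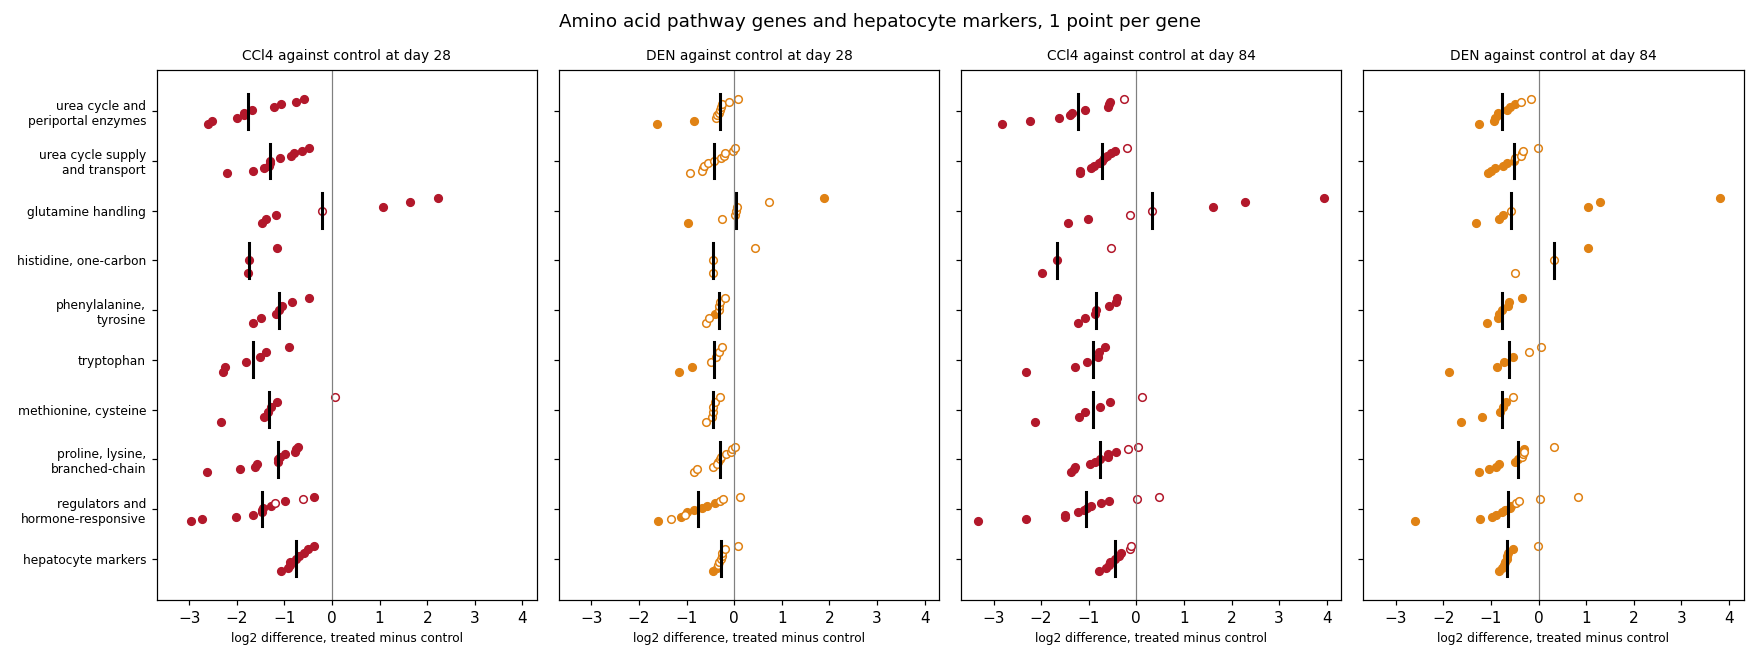
Log2 difference from same-day controls for the 10 enzymes and for each gene of 9 lists around them. Filled points passed an adjusted p of 0.05 and black bars are list medians. The glutamine list has points on both sides of 0 (Rhbg reaches 3.94), whereas the enzyme lists lie mostly to the left. An exception is the histidine and one-carbon list with DEN at day 84, at a median of 0.33. The other enzyme lists have their medians nearest to 0 with DEN at day 28.

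Regulators of hepatocyte metabolism and hormone-responsive genes were lower as well. Of 12 genes, 10 fell with CCl4 on each day (medians -1.46 and -1.06), where 33.6% and 36.3% of all genes did. With CCl4 at day 28, 9 of 12 fell without replicate 2. With DEN 7 fell at day 28 (median -0.75, 7.19% of all genes) and 8 at day 84 (median -0.65, 31.1% of all genes). On the spike-in scale the median with DEN at day 84 lies above 0, at 0.06. Hnf4a, the nuclear receptor that maintains hepatocyte expression, fell by 1.47 and 1.03 with CCl4 and by 0.67 with DEN at day 28. Gcgr, the glucagon receptor, fell by 0.98 and 1.09 with CCl4 and by 0.39 and 0.58 with DEN, but lies at 0.02 and 0.12 with DEN on the spike-in scale. Nr3c1, the glucocorticoid receptor, fell with CCl4 at day 28 (-1.46) and by 0.84 and 0.98 with DEN at days 28 and 84. Klf15, which in mice drives amino acid breakdown, fell by 2.73 with CCl4 at day 28. Cebpb fell with CCl4 at day 28 (-1.67) and by 1.11 with DEN at day 28. 

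Among all genes tested, the profiles nearest to an enzyme were found by the root mean square difference over 18 arrays, each gene centred on its mean in the 6 control arrays. For Cps1 they were Inhca, Aldh9a1 and Cyp2c23, at 0.145 to 0.152, where the median gene was at 0.613. Without replicate 2 of the CCl4 group at day 28 none of these 3 was among the nearest 3 of Cps1, which were C11h21orf91, Cflar and Akr1c14. Near Tat were Insig1 and Slc16a10, at 0.374 and 0.388, where the median gene was at 1.52. Hal was nearest to Gzma, Lipc and Enpep, at 0.295 to 0.321 against 1.45. Sds had no close neighbour, with Mlc1, Tll1 and Klf15 at 0.590 to 0.642 against 1.59, of which Klf15 alone stayed among the nearest 3 without that array. The neighbours named for Tat and Hal stayed. Among the enzymes themselves Gls2 and Otc were closest, at 0.218, and Asl and Nags next, at 0.250. Asl and Sds each had a second probe. The second Sds probe was at -2.31 and -1.73 with CCl4 at days 28 and 84, both past the threshold, and the second Asl probe was at -0.53 with CCl4 at day 28 and at -0.59 with DEN at day 84, both past it too.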

How the data were processed

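Total liver RNA was labelled with Cy3 and hybridised to 1-colour Agilent rat arrays, 1 array per sample, 18 arrays on 3 slides. The scanner files hold spot intensity as deposited: processed signals, background-subtracted, from Agilent Feature Extraction (version 10.7.1.1, per the submitters' processing notes). The authors' deposited table holds a linear ratio of that signal to the array's 75th percentile: 100% of its values equal the ones computed here within 0.01 log2, and its column medians run from 0.0852 to 0.0978. That settles its scale, centring and direction.

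The main values were log2 processed signals minus the array's 75th percentile. Control spots and 18 outlier probes were left out. Probes were named through RefSeq accessions (28206 probes, 15645 genes matched, 33331 probes unmatched), and the probe with the highest mean stood for a gene. A gene was tested if its probe was well above background on all 3 arrays of at least 1 group, which 10914 passed, all 10 enzymes among them. limma 3.58.1 (R 4.3.3) fitted a mean per group over all 18 arrays, and the script was tested on simulated data. P-values were adjusted by Benjamini-Hochberg over all genes tested, with a threshold of 0.05.

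The 10 enzymes and all 20 gene lists were chosen with earlier results of these data known. All 10 enzymes are named in every comparison. From the other lists, up to 4 genes past the threshold with the smallest adjusted p are named per comparison, and a gene so named may be given in the other comparisons too. Marker lists of other cell types are given by counts and summed levels. Nearest profiles are the 3 closest named genes outside the 10 enzymes, for Cps1, Hal, Sds and Tat. Some items that these rules name are not reported here. The ratio of Cps1 to Glul, the scaling to hepatocyte markers, and the values of lists, scalings, ratio and profiles without replicate 2 of the CCl4 group at day 28 were added after seeing the data.

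Replicate numbers are shared between groups, but same-numbered arrays did not deviate together (correlations of deviations from group means between -0.05 and 0.13), so they were not treated as pairs. Alternatives were other background correction, filters, scalings, probe rules, slide and replicate blocks, the compared groups alone, and leaving out each array.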

Additional observations from a re-analysis of the deposited data

How the results depend on the processing

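With 3 arrays per group a single array can decide a call, and signal over background limited none of the 10 enzymes. The authors' deposited values gave the same call and direction in 90 of 90 enzyme results and the mean of all probes in 89 of 90. With the replicate block 89 of 90 kept theirs; the exception was Ass1 in control livers, where 0 enzymes then passed at day 84 against day 28. No within-slide value exists for the control comparison of the days, and the cause of the changes listed here was not tested.
Scaled to spike-in probes, the count of enzymes past the threshold was 6 with CCl4 and 1 with DEN at day 28, 1 with DEN at day 84, 4 between the compounds at day 84 and 0 between the control days. Over all genes that scaling gave 3785 with DEN at day 28, 861 and 301 for the changes of the DEN and CCl4 effects between days, and 487 between the control days. It changed the sign of Asl (0.21) and Nags (0.051) with CCl4 at day 28. With DEN at day 84 it did so for Cps1 (0.21), Otc (0.11), Asl (0.035) and Arg1 (0.55). Of these, Arg1 alone passed on the spike-in scale, and it had not passed on the main scale. The others lost their calls. A further 17 results that passed on neither scale changed sign.
Scaled to hepatocyte markers, 2 enzymes passed with DEN at day 84, 4 between the compounds at day 84, 1 for the change of the CCl4 effect (1471 of all genes) and 0 between the control days. With replicate 2 of the CCl4 group at day 28 also left out, 4 enzymes passed with CCl4 at day 28 on the spike-in scale (Asl at 0.22 and Nags at 0.12) and 5 relative to the markers (Asl at 0.14 and Nags at 0.040). The marker scaling changed the sign of Asl with CCl4 at day 28 (0.16), and of Cps1 (0.12), Otc (0.015) and Arg1 (0.46) with DEN at day 84. Here too Arg1 alone passed, and the others lost their calls.
Between the compounds at day 84, normexp and quantile normalization each gave 4 enzymes, 3 lower and 1 higher after CCl4. Under quantile normalization the higher one was Asl (0.48, adjusted p = 0.0309 by limma). Normexp gave 1163 genes for the change of the CCl4 effect. No filter on dim probes gave 397 genes there. No filter, scaling to the median and quantile normalization each gave 0 enzymes between the control days.
With slide as a block, 5 enzymes passed with CCl4 at day 84 and 0 between the control days; 2012 genes passed between the compounds at day 84, 402 for the change of the CCl4 effect and 49 between the control days. Within slide the values were 5, then 1812 and 255 for the same results. With the compared groups alone, 5 enzymes passed between the compounds at day 28 and 3 for the change of the DEN effect, and 369 genes for the change of the CCl4 effect.
Leaving out each array gave 700 to 1319 genes and 0 to 2 enzymes with DEN at day 28, and 4 to 8 enzymes with DEN at day 84. The change of the DEN effect between days ran over 874 to 2130 genes and 0 to 2 enzymes, and that of the CCl4 effect over 382 to 1360 genes and 0 to 1 enzymes. Between the control days the range was 568 to 873 genes and 0 to 1 enzymes; with CCl4 it was 9 to 10 enzymes at day 28 and 6 to 9 at day 84.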
